A study of Homo sapiens with 2 samples.

Results

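The genes examined encode the T-type calcium channels, a calcium channel beta subunit, and calcium/calmodulin-dependent protein kinase II (CaMKII) with its inhibitors. They are the 10 rows of the deposited gene table, of 58735 in all, whose symbols are CACNA1H, CACNA1G, CACNA1I, CACNB3, CAMK2A, CAMK2B, CAMK2D, CAMK2G, CAMK2N1 and CAMK2N2. The set was chosen with the counts of these same libraries known, among them those of CACNA1H and CAMK2N2, so its values are a description and no test was made of them. RNA sequencing was done on NCI-H460, an established human large cell lung carcinoma line. The library labelled siControl came from wild-type cells given no siRNA against CYP4F11, and the siCYP4F11 library was made after transfection of an siRNA to CYP4F11, a cytochrome P450 that hydroxylates fatty acids. Cells were collected 24 h after transfection with a lipid reagent, and the labels give both libraries the same batch. By its title, the study asks how loss of CYP4F11 bears on growth and movement of this line. There was 1 library per group, so no difference below has a replicate check. The values therefore describe 2 libraries, not their conditions.

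T-type channels are low-voltage-activated calcium channels that open near the resting membrane potential and close quickly, and they are best known from pacemaking neurons, heart and endocrine cells. Calcium that enters a cell binds calmodulin, and calcium-bound calmodulin activates CaMKII, a kinase whose subunits assemble into a large mixed holoenzyme and phosphorylate one another at a regulatory threonine. CAMK2N1 and CAMK2N2 encode small proteins that bind the active kinase and inhibit it.

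To show what tells the 2 inhibitors apart, their coding sequences from GENCODE release 29 are printed from start to stop codon, with bases that differ in the alignment in capitals. They hold 237 and 240 bases, and 172 of 240 aligned positions are identical (71.7%).
CAMK2N1: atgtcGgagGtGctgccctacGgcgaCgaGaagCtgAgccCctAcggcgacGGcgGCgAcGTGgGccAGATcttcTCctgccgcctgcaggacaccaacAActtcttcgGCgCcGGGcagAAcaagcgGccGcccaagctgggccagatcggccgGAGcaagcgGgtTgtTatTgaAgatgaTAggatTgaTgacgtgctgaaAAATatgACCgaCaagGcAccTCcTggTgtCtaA
CAMK2N2: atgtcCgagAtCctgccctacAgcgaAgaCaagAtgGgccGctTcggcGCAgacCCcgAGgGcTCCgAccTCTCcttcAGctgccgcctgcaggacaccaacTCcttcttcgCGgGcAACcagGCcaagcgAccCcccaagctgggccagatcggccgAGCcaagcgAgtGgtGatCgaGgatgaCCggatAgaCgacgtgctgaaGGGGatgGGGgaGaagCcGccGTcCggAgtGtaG
The longest runs without a difference, of 23 and 22 bases, lie in the middle of the sequences, at bases 136 to 158 and 81 to 102 of CAMK2N2. No run of 50 bases of CAMK2N1 transcripts was found in a transcript of another gene, so reads of the 2 inhibitors can be told apart.

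The 4 kinase genes are most alike in the catalytic and regulatory parts. The 57 bases around the codon of the autophosphorylated threonine are printed to show how far the subunits differ even there, with that codon in capitals. It is codon 286 of CAMK2A and codon 287 of the other 3.
CAMK2A: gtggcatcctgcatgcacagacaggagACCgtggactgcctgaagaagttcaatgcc
CAMK2B: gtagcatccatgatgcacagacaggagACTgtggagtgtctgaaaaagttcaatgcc
CAMK2D: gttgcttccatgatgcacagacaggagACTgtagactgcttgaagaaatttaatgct
CAMK2G: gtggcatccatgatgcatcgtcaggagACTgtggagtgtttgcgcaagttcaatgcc
The pairs differ at 8 to 14 of the 57 bases. Over whole coding sequences the pairs are 63.8% to 74.4% identical, and CAMK2B and CAMK2D share no 50-base word with any other gene. The T-type pore subunits are 64.1% to 66.3% identical in pairs. Their longest coding run common to all 3 genes has 35 bases and lies at coding bases 4576 to 4610 of CACNA1H.
T-type channels: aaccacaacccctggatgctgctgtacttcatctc
Between CACNA1H and other genes 1.77% of 50-base words are shared, against 24.7% for CAMK2N2. The words of CAMK2N2 are shared with EEF1AKMT4, a neighbour on the other strand.

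The siRNA target was lower in the library labelled siCYP4F11, at 74.5 CPM (library-size-scaled counts, TMM) against 197 CPM. The libraries held 16207785 and 13002179 counts, siControl first, and a floor of 3 counts stood at 0.186 and 0.230 CPM. Measured genes, those with a mean CPM of at least 1, numbered 13942. The 2-fold rule called a gene where the log2 ratio of siCYP4F11 over siControl reached 1 in either direction and the 95% interval from counting error left out 0. By this rule 175 genes, 1.26% of those measured, were lower and 98 genes, 0.703%, were higher. Most calls lay at low levels: among genes with a mean CPM of 1 to 3, 6.52% were lower and 4.2% higher. The SD of log2 ratios over genes was 0.65 at that level and 0.21 at a mean CPM of 30 to 100. Of the epithelial markers, the keratins KRT8, KRT18 and KRT19 were abundant, EPCAM had 6 and 8 reads, and CDH1 had 1 and 0.

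Of the 10 genes, CACNA1H and CAMK2N2 were lower in the siCYP4F11 library by the 2-fold rule and none was higher. Of the 10, 8 were measured, and CACNA1I and CAMK2A lay below the level filter. CACNA1H and CAMK2N2 passed that filter through the siControl library alone, since both were under 1 CPM in the other. The 2 calls stand beside the 1.26% of all measured genes called lower, and the 6.52% at a mean CPM of 1 to 3, where both lie. Nothing is read from either comparison because the set was chosen on this contrast. The most abundant gene, CAMK2D, was slightly higher, and the rest had counting intervals that included 0. Intervals that exclude 0 were common, wholly above it for 2599 and wholly below it for 2678 of all 13942 measured genes.

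**Figure D1:**
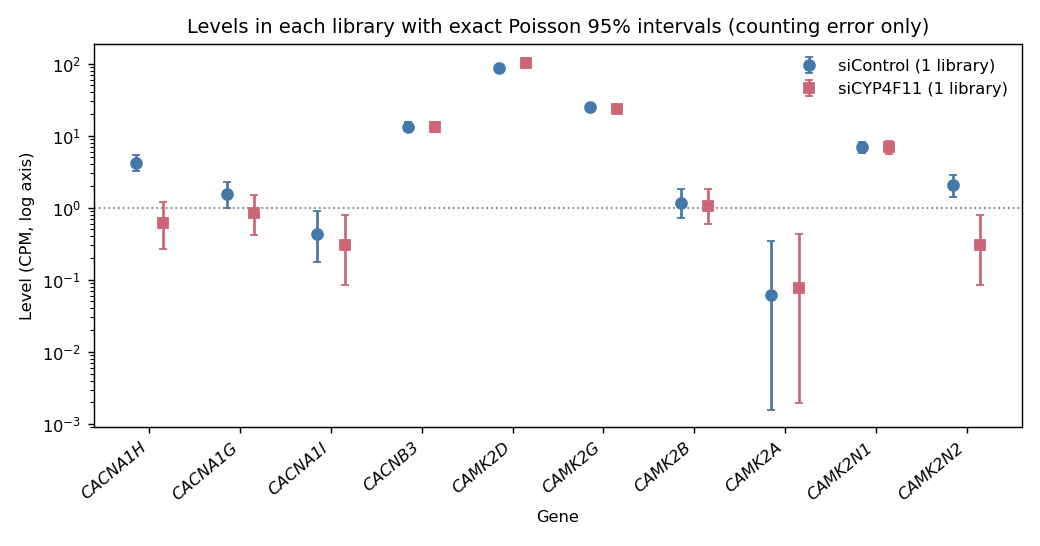
Level of each gene in CPM on a log axis, in the siControl library (circles) and the siCYP4F11 library (squares), with exact Poisson 95% intervals that cover counting error only. The dotted line marks 1 CPM. CACNA1H stands at 4.21 CPM in siControl and 0.613 CPM in siCYP4F11, and CAMK2N2 at 2.04 and 0.306 CPM. CAMK2A rests on 1 read in each library.

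CACNA1H encodes the pore of the Cav3.2 T-type channel (ENSG00000196557). It lies on the plus strand of chromosome 16 from 1153121 to 1221772 on GRCh38. It had 68 counts in siControl and 8 in siCYP4F11. This was 4.21 CPM (exact Poisson 95% interval 3.27 to 5.34) against 0.613 CPM (0.265 to 1.21), so the intervals of the 2 libraries did not overlap. The log2 ratio was -2.70 (95% counting interval -4.05 to -1.72), which is 15.3% of the siControl level (6.04% to 30.3%). Ranked by the interval bound nearest 0, it was number 3 of the 175 genes called lower and number 2 of the 103 protein-coding ones. Its transcripts are rich in G and C (65.6%). A trend of log2 ratios on GC content, fitted where the mean CPM was 10 or more and so without CACNA1H itself, stood at -0.13 at that content. With it removed the log2 ratio of CACNA1H was -2.57. In bulk RNA, fewer cells that express the gene and less RNA per cell cannot be told apart.

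CACNA1G, the Cav3.1 pore gene on chromosome 17, had 25 counts against 11, or 1.55 CPM (1.002 to 2.29) against 0.843 CPM (0.421 to 1.51). Its log2 ratio was -0.84 (-2.05 to 0.20), short of the 2-fold line and with an interval that included 0. It is the measured gene of the set nearest outside the threshold, and CAMK2N2 is the nearest inside. CACNA1I, the Cav3.3 pore gene on chromosome 22, had 7 counts against 4, at 0.434 and 0.306 CPM. Its log2 ratio was -0.43 (-2.72 to 1.47), so neither direction was detectable at this depth. The 3 pore genes thus had ratios below 0, but the intervals of CACNA1G and CACNA1I overlap both 0 and that of CACNA1H, and the difference between them was not tested.

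Summed over the 3 pore genes there were 100 counts against 23, giving a log2 ratio of -1.79 (-2.54 to -1.15). Without CACNA1H the sum was 32 against 15, giving a log2 ratio of -0.76 (-1.78 to 0.14). Most of the difference in the sum was therefore in CACNA1H. Per kilobase of gene model, CACNA1H made up 71.0% of the T-type total in siControl and 38.2% in siCYP4F11. CACNA1G went from 23.1% to 46.6% of that total and CACNA1I from 5.83% to 15.2%, although both had a lower CPM in siCYP4F11. Their siCYP4F11 shares rest on 11 and 4 reads. As shares of counts, the intervals of the 2 libraries overlapped for CACNA1G, at 16.9% to 34.7% and 26.8% to 69.4%. They also overlapped for CACNA1I, at 2.86% to 13.9% and 4.95% to 38.8%. In counts, the share of CACNA1H was 68.0% (Clopper-Pearson 95% interval 57.9% to 77.0%) in siControl and 34.8% (16.4% to 57.3%) in siCYP4F11, and the upper end of the latter was close to the lower end of the former.

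CACNB3 encodes a cytoplasmic beta subunit that traffics high-voltage-activated calcium channels to the membrane, and T-type pores do not require it. It lies on chromosome 12 and had 216 counts against 172. This was 13.4 CPM (11.7 to 15.3) against 13.2 CPM (11.3 to 15.3), and the intervals overlapped almost wholly. The log2 ratio was -0.02 (-0.32 to 0.27), and 0.09 with the GC trend removed.

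**Figure D2:**
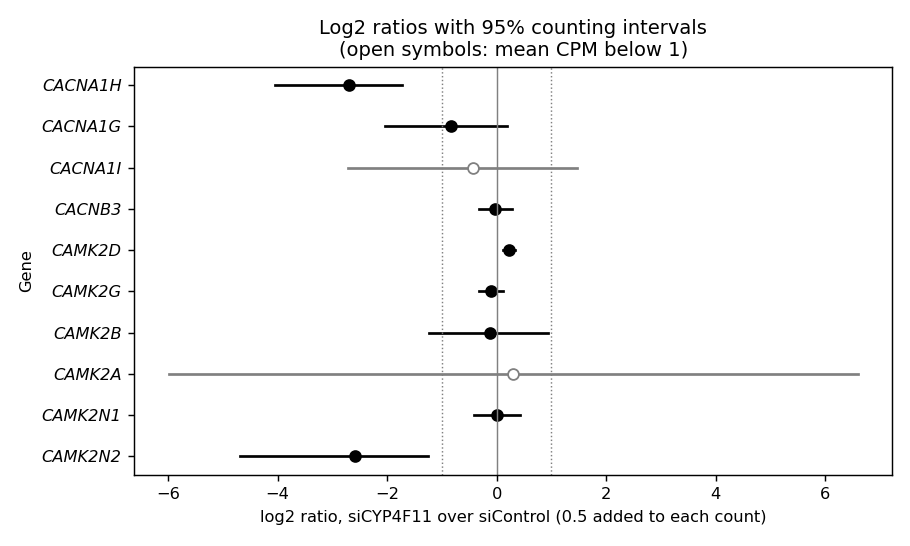
Log2 ratio of siCYP4F11 over siControl for each gene with its 95% counting interval, with dotted lines at 2-fold. The intervals of CACNA1H (-4.05 to -1.72) and CAMK2N2 (-4.70 to -1.25) lie wholly past the lower line, and open symbols mark CACNA1I and CAMK2A, whose mean CPM was below 1.

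CAMK2D encodes the delta subunit of CaMKII, a form found in many tissues, and was the most abundant gene of the set. It lies on chromosome 4 and had 1409 counts against 1325. This was 87.3 CPM (82.8 to 92.0) in siControl and 101 CPM (96.1 to 107) in siCYP4F11. The log2 ratio was 0.22 (0.11 to 0.33), and 0.15 with the GC trend removed. The counting interval excluded 0, and the size was close to the SD of log2 ratios over genes with a mean CPM of 30 to 100, 0.21.

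CAMK2G, the gamma subunit gene on chromosome 10, had 401 counts against 301, or 24.8 CPM (22.5 to 27.4) against 23.1 CPM (20.5 to 25.8). Its log2 ratio was -0.11 (-0.33 to 0.11). CAMK2B, on chromosome 7 and best known from brain and muscle, had 19 counts against 14, at 1.18 and 1.07 CPM, giving a log2 ratio of -0.12 (-1.24 to 0.94). CAMK2A, on chromosome 5 and the main subunit of forebrain neurons, had 1 count in each library, below the floor in both. No direction can be given for CAMK2A, and the CAMK2B interval allows a 2-fold change downward.

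Summed over the 4 subunits, the kinase had 1830 counts against 1641, giving a log2 ratio of 0.15 (0.05 to 0.25). Without CAMK2D the sum was 421 against 316, at -0.11 (-0.32 to 0.11). Per kilobase, CAMK2D made up 75.6% of the kinase total in siControl and 79.5% in siCYP4F11, and CAMK2G 23.4% and 19.6%. In counts, the share of CAMK2D was 77.0% (Clopper-Pearson 95% interval 75.0% to 78.9%) and 80.7% (78.8% to 82.6%). The makeup of the kinase in both libraries was thus mainly delta with a gamma minority, and the brain-enriched alpha and beta genes together gave under 1% of the total per kilobase.

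CAMK2N2 encodes one of the inhibitors of CaMKII (ENSG00000163888). On GRCh38 it spans 184259213 to 184261463 of chromosome 3, minus strand, and its coding sequence is the second of the pair printed above. It had 33 counts in siControl and 4 in siCYP4F11. This was 2.04 CPM (1.41 to 2.87) against 0.306 CPM (0.0835 to 0.785), with no overlap of the intervals. The log2 ratio was -2.59 (-4.70 to -1.25), which is 16.6% of the siControl level (3.86% to 42.1%). It was number 14 of the 175 genes called lower, and number 9 of the protein-coding ones. EEF1AKMT4, a methyltransferase gene on the plus strand, covers 373 of the 1362 exon bases of CAMK2N2 (27.4%). It had 64 counts against 67, giving a log2 ratio of 0.37 (-0.14 to 0.89), so the neighbour was not lower. How the counting used strand is not given in the sources used here, so some counts of either gene may belong to the other.

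CAMK2N1, the other inhibitor gene, lies on chromosome 1 and had 111 counts against 90. This was 6.88 CPM (5.66 to 8.28) against 6.89 CPM (5.54 to 8.47), a log2 ratio of 0.01 (-0.41 to 0.42). The interval of CAMK2N1 and that of CAMK2N2 did not overlap. CAMK2N2 was chosen with its counts known and had 4 reads in siCYP4F11, and the difference between the 2 genes was not tested. Together the inhibitors had 144 counts against 94, giving a log2 ratio of -0.31 (-0.70 to 0.08). Per kilobase, CAMK2N2 made up 36.3% of the inhibitor total in siControl and 7.86% in siCYP4F11, with CAMK2N1 as the remainder. In counts, its share was 22.9% (Clopper-Pearson 95% interval 16.3% to 30.7%) in siControl and 4.26% (1.17% to 10.5%) in siCYP4F11. The inhibitor total per kilobase was 4.13 CPM against 2.86 CPM, beside a kinase total of 15.7 against 17.3 CPM per kilobase. These totals have no interval. CAMK2N2 weighs more in the inhibitor total than in the summed counts, since its gene model has 1362 bases and that of CAMK2N1 2615.

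**Figure D3:**
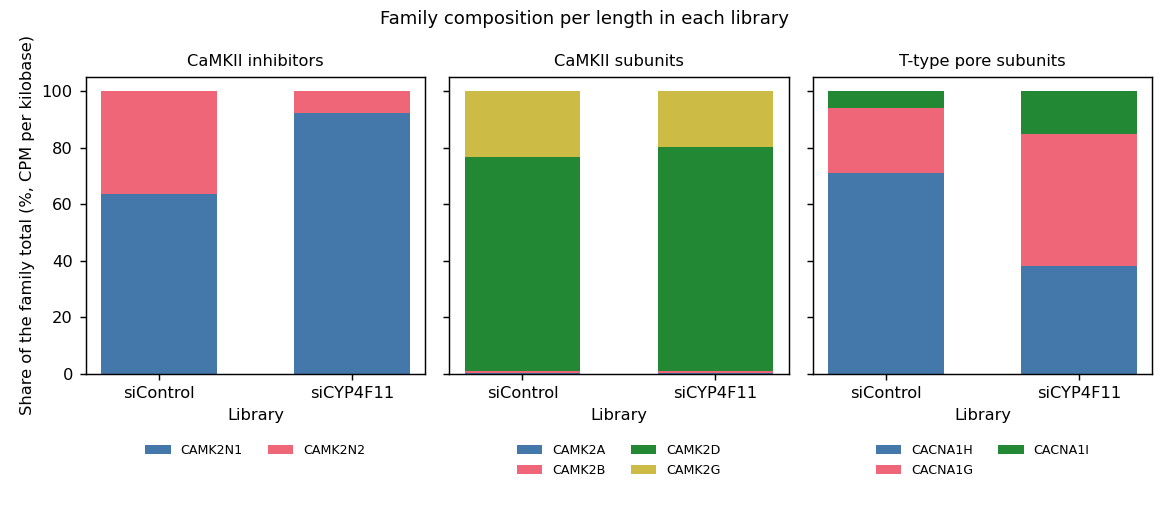
Share of each gene in its family total, in percent of CPM per kilobase of gene model, in the siControl and siCYP4F11 libraries. CACNA1H went from 71.0% to 38.2% of the T-type total and CAMK2N2 from 36.3% to 7.86% of the inhibitor total, while CAMK2D went from 75.6% to 79.5% of the kinase total.

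Levels between genes were compared per kilobase of the deposited gene model length. In siControl the order was CAMK2D at 11.9 CPM per kilobase, CAMK2G at 3.66, CAMK2N1 at 2.63, CACNB3 at 1.87, CAMK2N2 at 1.5 and CACNA1H at 0.489. CACNA1G at 0.160, CAMK2B at 0.144, CACNA1I at 0.0402 and CAMK2A at 0.0101 followed. Neighbours with overlapping Poisson intervals were CACNB3 and CAMK2N2, CACNA1G and CAMK2B, and CACNA1I and CAMK2A. In siCYP4F11 CAMK2D stood at 13.8 CPM per kilobase, CAMK2G at 3.40, CAMK2N1 at 2.64 and CACNB3 at 1.84. CAMK2N2 followed at 0.225, CAMK2B at 0.131, CACNA1G at 0.0868 and CACNA1H at 0.0712, with CACNA1I and CAMK2A last. In that library the intervals of CAMK2G and CAMK2N1 overlapped, as did those of CAMK2N1 and CACNB3. From CAMK2N2 downward, the intervals of all neighbours overlapped. CACNA1H was number 6 in siControl and number 8 in siCYP4F11, below CACNA1G there, although its interval overlapped that of CACNA1G.

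**Figure D4:**
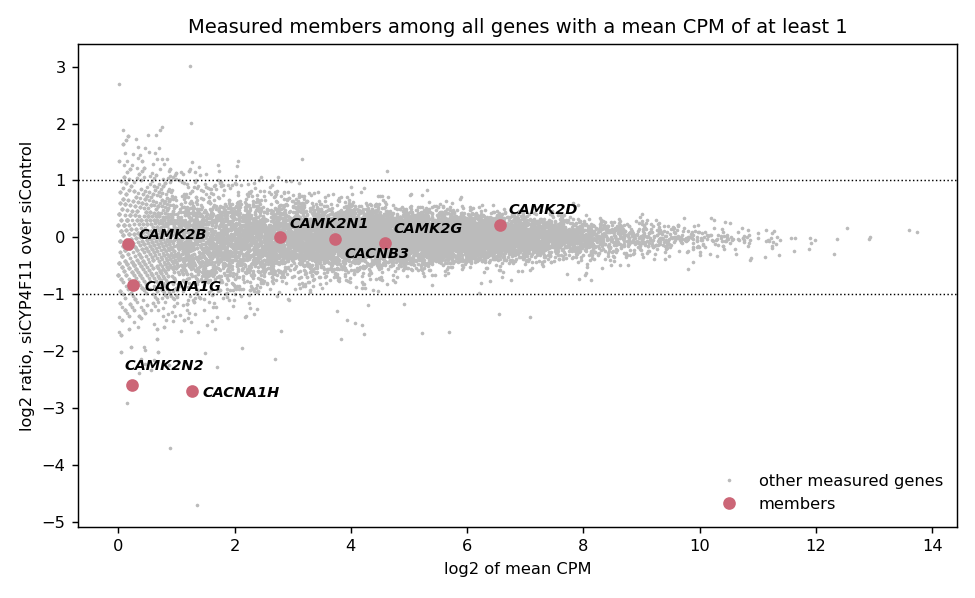
Log2 ratio of siCYP4F11 over siControl against log2 of the mean CPM for all 13942 measured genes (grey) and the 8 measured genes of the set (red), with dotted lines at 2-fold. CACNA1H and CAMK2N2 lie near the lower edge of the cloud at low mean CPM, CACNA1G lies inside the lower line, and the other 5 lie near 0.

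Position was not used to choose the set. The 3 nearest measured genes on each side of CACNA1H had log2 ratios from -0.41 to 0.38, and none passed the 2-fold rule. Among them were RPUSD1, CHTF18 and LMF1 at lower coordinates, and the antisense gene AL031714.1 and TSR3 at higher ones. LMF1, which matures lipases, had 219 counts against 146, at -0.28 (-0.59 to 0.03). TPSG1 and 3 antisense genes that overlap CACNA1H had 0 reads in both libraries. The neighbours of CAMK2N2 had log2 ratios from -0.28 to 0.10 and none passed the rule. They were AP2M1, ABCF3 and ALG3 at lower coordinates, and PSMD2, EIF4G1 and FAM131A at higher ones. ALG3, a mannosyltransferase of the N-glycan precursor, was at 0.10 (-0.09 to 0.28), and PSMD2, a proteasome subunit, at -0.18 (-0.25 to -0.11). EIF4G1, a translation initiation scaffold, was at -0.28 (-0.33 to -0.24). No measured gene beside either one was as far down.

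RefSeq promoter sequences on GRCh38.p14 were matched by symbol for 7 of the 10 genes. CACNA1H, CACNA1G and CAMK2N1 had no entry. The 250 bases upstream of the CAMK2N2 start, chr3:184261554-184261803 on the minus strand, are printed because this is the matched gene furthest down, with the GC box GGGCGG, read on either strand, in capitals.
CAMK2N2: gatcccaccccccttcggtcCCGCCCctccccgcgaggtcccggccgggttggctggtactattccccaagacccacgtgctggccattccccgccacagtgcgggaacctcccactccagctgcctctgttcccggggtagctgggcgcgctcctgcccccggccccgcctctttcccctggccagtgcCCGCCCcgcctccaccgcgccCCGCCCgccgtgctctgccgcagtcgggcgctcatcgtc
The window holds 25 CpG dinucleotides against a median of 11 over all 35116 entries, and its GC content is 74.4%. It has 3 matches to GGGCGG, which 42.6% of all entries hold at least once, and 1 to the E-box CACGTG, held by 6.34%. TATAAA and GCGTGGGCG, a motif of EGR1, had 0 matches there. GC boxes were also found upstream of genes not called lower, with 9 matches for CAMK2G, 3 for CAMK2B and 2 in each of 2 of the 3 CACNB3 entries. CAMK2B and CAMK2G also held more CpG dinucleotides than CAMK2N2, 37 and 32. A match describes letters only and does not show a bound site.

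Other calcium signalling genes were taken from 11 lists with 114 genes, of which 80 were measured. Of the 80, 1 was higher and 2 were lower by the 2-fold rule, beside 0.703% and 1.26% of all measured genes. All of these called genes had a mean CPM of 1 to 3, where 4.2% of genes were higher and 6.52% lower. The median log2 ratio was -0.0021 over the 80 genes and -0.0055 over all measured genes. The lists were written with earlier results of these libraries known.

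The auxiliary subunits of voltage-gated channels held both genes on the lower side. Of 15 genes 8 were measured, 6 of them below 0, as were 7083 of all 13942 measured genes, with a median of -0.29. CACNA2D2, an alpha2delta subunit that brings channels to the membrane and is bound by gabapentin-type drugs, had 37 counts against 6. The levels were 2.29 CPM and 0.460 CPM, giving a log2 ratio of -2.22 (-3.85 to -1.06). CACNG4, a transmembrane gamma subunit that also regulates AMPA receptors, had 33 counts against 13, at -1.005 (-2.09 to -0.07). Its levels were 2.04 CPM and 0.996 CPM. CACNA2D2 and CACNG4 thus passed the level filter through the siControl library alone, as CACNA1H and CAMK2N2 did. CACNG4 was on the 2-fold line and lost its call under total counts, DESeq2 size factors, 2 added to each count or the GC correction. Of the others, CACNG8 had 71 counts against 30, at -0.92 (-1.60 to -0.30). CACNA2D1, another alpha2delta gene, had 453 against 262, at -0.48 (-0.71 to -0.26). These were measured and did not pass the rule. Of these, the rule for naming genes covers CACNA2D2 and CACNG4, and CACNG8 and CACNA2D1 were named after their values were seen.

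The other pore genes were close to silent. None of the 7 high-voltage-activated alpha1 genes was measured, and 3 of them had 0 reads in both libraries. CACNA1C, the cardiac L-type pore, had 5 counts against 4, and together the 7 genes had 11 counts against 9. In siControl the T-type genes, with 100 counts, therefore gave most of the voltage-gated pore reads. Of the RGK proteins, small GTPases that bind beta subunits and shut channels down, only GEM was measured, with 21 counts in each library, at 0.31 (-0.64 to 1.25). RRAD, another RGK gene, had 15 counts against 1 and lay below the level filter, and it was named after its values were seen.

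No regulator of T-type channels was called. Of 8 genes 7 were measured, with a median of -0.03. WWP1, a ubiquitin ligase of Cav3.2, was at 0.35 (0.18 to 0.53), and REST, a repressor of neuronal genes, was at -0.18 (-0.32 to -0.04). EGR1, an activator of CACNA1H in other cells, had 2315 counts against 1792, at -0.06 (-0.15 to 0.03), and was named for that role after its value was seen.

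Among calmodulin and the other calmodulin kinases, 11 of 15 were measured and the median was -0.02. CAMK4, a mostly nuclear kinase that phosphorylates CREB, was the gene called higher, with 22 counts against 39, or 1.36 CPM against 2.99 CPM, giving a log2 ratio of 1.12 (0.34 to 1.96). Of the calmodulin genes, CALM2 was at 0.29 (0.23 to 0.34) and CALM3 at 0.22 (0.11 to 0.33), and both were named after their values were seen. None of the 5 CaMKII phosphatase genes passed the rule, with a median of 0.14. PPP1CC, a catalytic subunit of protein phosphatase 1, was at 0.23 (0.17 to 0.29), and PPM1E was at 0.22 (-0.31 to 0.74).

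Genes downstream of calcium showed no call. Nuclear and cytoskeletal targets of CaMKII had a median of -0.01 over 11 measured genes. HDAC4, a class IIa deacetylase that CaMKII drives out of the nucleus, was at -0.38 (-0.49 to -0.26), and FLNA, an actin crosslinker, was at -0.34 (-0.36 to -0.32). Calcineurin and NFAT genes had a median of -0.10 over 11, with the catalytic subunit gene PPP3CA at 0.44 (0.24 to 0.63) and NFATC2 at -0.41 (-0.88 to 0.05).

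Genes of calcium stores and transport had no call either. Store release and store-operated entry genes had a median of -0.14 over 11, 8 of them below 0, beside 7083 of all 13942 measured genes. RYR3, a ryanodine receptor, had 55 counts against 22, at -0.996 (-1.80 to -0.28), just short of the 2-fold line, and ITPR3, an IP3 receptor, was at -0.30 (-0.39 to -0.22). Pumps and exchangers had a median of 0.08 over 8, with SLC8B1, the mitochondrial sodium-calcium exchanger, at -0.31 (-0.73 to 0.09) and ATP2B4, a plasma membrane pump, at 0.28 (0.03 to 0.52). All 7 mitochondrial uniporter genes were above 0, as were 6859 of all 13942 measured genes, with a median of 0.10. Of the 7, 2 had intervals that excluded 0. These were MICU3, a gatekeeper of the uniporter, at 0.77 (0.32 to 1.22), and MCUB, a dominant-negative pore subunit, at 0.59 (0.35 to 0.83). With the GC trend removed the median was 0.07. MCU, at 0.049, and MICU2, at 0.12, lay below the trend at their GC content, 0.055 and 0.14. Both were named after their values were seen.

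**Figure D5:**
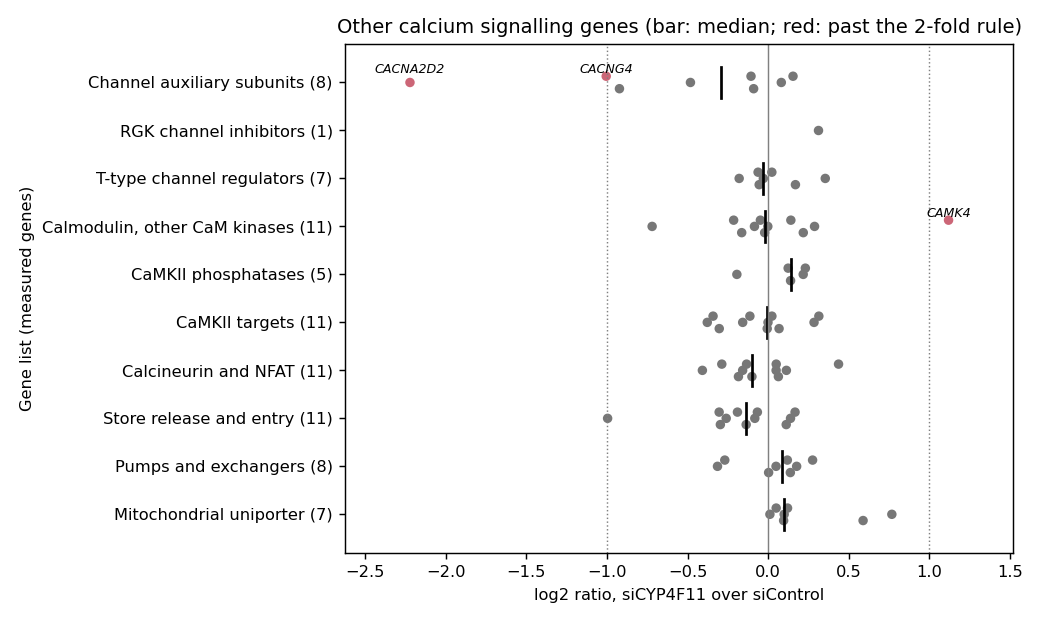
Log2 ratio of siCYP4F11 over siControl for the measured genes of 10 calcium signalling lists, with points offset vertically for legibility, a bar at the median of lists with at least 3 genes, and red for genes past the 2-fold rule. CACNA2D2 and CACNG4 lie on the lower side among the auxiliary subunits, and CAMK4 on the higher side.

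T-type channels and CaMKII inhibitors are known from neurons and endocrine cells, so markers of other cell types were read beside them. Of 10 neuronal and neuroendocrine markers 6 were measured, and all 6 had log2 ratios below 0, with a median of -0.47. Of all 13942 measured genes, 7083 were below 0. Their summed level was 219.9 CPM in siControl and 199.9 CPM in siCYP4F11. Those furthest from 0 were SNAP25, a synaptic vesicle fusion protein, at -0.66 (-1.19 to -0.15) and TUBB3, a neuronal tubulin, at -0.55 (-1.22 to 0.08). The other 4 were SYP at -0.48 (-1.08 to 0.09), SYT1 at -0.45 (-0.65 to -0.26), NCAM1 at -0.08 (-0.20 to 0.03) and CHGA at -0.01 (-0.13 to 0.11), named after their values were seen. The intervals of SNAP25 and SYT1 excluded 0 and those of the other 4 included it. INSM1 had 1 read in siControl and 0 in siCYP4F11. None passed the 2-fold rule, and the part of these markers in the result was not tested. Muscle markers had 2 reads against 1 in all, none measured. Of 6 leukocyte markers only CD14 was measured, called higher with 20 counts against 33, at 1.01 (0.18 to 1.91), and PTPRC was among the 3 at 0. Fibroblast and endothelial markers summed to 8.42 and 10.3 CPM over 7 genes, with DCN at 0.77 (0.01 to 1.56) and COL1A1 at 0.26 (-0.47 to 0.998). Of the epithelial markers, 4 were measured with none past the rule, KRT8 at -0.30 (-0.33 to -0.26) and KRT19 at -0.29 (-0.32 to -0.26).

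Over the 2 libraries, likeness was measured as the distance in log2 ratio and log2 mean CPM. The measured protein-coding genes nearest to CACNA1H were TMSB15B at a distance of 0.593, ZNF410 at 0.846 and TERT at 0.904. TMSB15B had 87 counts against 14, ZNF410 41 against 7 and TERT 42 against 8, and all 3 were lower by the rule. Those nearest to CAMK2N2 were CACNA2D2 at 0.432, IL1RL1 at 0.475 and ZNF410 at 0.578. IL1RL1 had 35 counts against 6. Of these genes only CACNA2D2 is in a list used here, and with 1 ratio per gene likeness shows only a similar level and ratio.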

How the data were processed

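Poly-A RNA of NCI-H460 cells was turned into dUTP strand-specific libraries, per the labels' protocols. The authors deposited raw read counts per gene and a gene model length in bases, used here only for levels per kilobase. The submitters' processing notes list GRCh38, edgeR 4.0.16, featureCounts 2.0.6, HISAT2 2.2.1 and fastp. The role of each and the strand setting of the counting are not given in the sources used here. The design text writes NCI-H469 for the line, where the sample labels, used here, write NCI-H460. The table had 0 other sample columns.

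Library sizes were scaled by TMM in edgeR 4.0.16 (R 4.3.3), with factors of 0.996 and 1.004. Log2 ratios had 0.5 added to each count. For their 95% intervals, the exact Clopper-Pearson bounds on the part of a gene's counts found in siCYP4F11 were converted to ratios, and levels have exact Poisson intervals. The reads carry no molecular identifiers, so intervals and floors cover counting error only. No p-value was computed, since edgeR's quasi-likelihood test needs replicates. Transcripts came from GENCODE 29, which held all 10 genes, and all 50-base words of list genes were searched on both strands. The intervals and the call rule were run on simulated Poisson counts, which hold counting error only. That run checked the calculation and cannot speak to variation between libraries. Calculations used Python 3.11.15, numpy 2.4.6, pandas 2.3.3, scipy 1.17.1 and statsmodels 0.14.6.

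The members and gene lists were chosen with earlier results of these data known. Genes named were all members and CYP4F11. Of each list, they were the members past the call rule or, where none passed, the 2 measured members with the largest log2 ratios. Also named were measured neighbours within 3 genes of CACNA1H and CAMK2N2, overlapping genes and the 3 nearest in level and ratio. Genes named otherwise are marked, and 1 gene that the rule covers is not reported here. Alternatives were other library scalings (total counts, DESeq2 1.42.0 size factors, upper quartile), 2 added to each count, a lowess correction on GC content (span 0.3, fitted at a mean CPM of at least 10), other level filters and other call rules.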

Additional observations from a re-analysis of the deposited data

How the results depend on the processing

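All 56 values of the gene and summed kinase log2 ratios under other scalings, 2 added to each count, the GC correction or a per-kilobase sum stayed inside their counting intervals. The scalings were nearly alike and many intervals were wide, such as -5.99 to 6.60 for CAMK2A. Staying inside was thus close to fixed in advance, and little is read from it. CACNA1H ran from -2.70 to -2.50 and CAMK2N2 from -2.59 to -2.24, and both stayed called under every alternative except a mean CPM of at least 5, which left 0 genes of the set lower since it removes them. All 63 alternative medians of lists with at least 3 measured genes stayed within an interval over the genes of their list. Lists of few genes give broad intervals, so little is read from this either. The median of the auxiliary subunits was -0.295 in the main setting and -0.099 at a mean CPM of at least 5. That of the pumps and exchangers went from 0.083 to -0.00027 with the GC correction. Of the 2 other calcium genes called lower, 1 was left under total counts, DESeq2 size factors, 2 added to each count and the GC correction. With no filter on low counts 476 of all genes were lower and 345 higher, with 3 and 1 of the other calcium genes, while a minimum mean CPM of 5 gave 19 and 5, with 0 and 0 calcium genes. A 1.5-fold threshold gave 479 lower and 284 higher genes, with 4 and 3 calcium genes. A 4-fold threshold gave 18 and 3, with 1 and 0, and an interval wholly past 2-fold gave 24 and 3, with 1 and 0. Each of these settings by construction tests another number of genes or asks for another size. No paired analysis was possible because each group has 1 library, and for the same reason no library could be left out. Depth limits CACNA1I and CAMK2A most, which had at most 7 reads in a library.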
